A study of Mus musculus with 6 samples.

Results

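Complex I of the respiratory chain was examined through the genes whose symbol starts with Nduf, in hearts of mouse embryos at E12.5. A gene entered when a probe set was annotated to it alone, and the brightest such probe set, by mean over the arrays, stood for it. The rule found 44 genes among the 18193 genes named on the array, and 43 of them passed the signal filter, among 12416 genes tested. The 44th, Ndufb4, lay below it. C57BL/6 hearts were hybridised to 6 Affymetrix expression arrays, 3 labelled wildtype and 3 labelled Rhau KO, the latter described in the labels as from mice with Rhau deleted. The current symbol of Rhau is Dhx36, and its product is a helicase that unwinds G-quadruplex structures. The promoter or Cre line behind the deletion, the deleted part of the gene and the genotype of the wildtype hearts beyond that word are not given in the sources used here. According to the series text there were 3 hearts per group. The p-values rest on the spread between these arrays, moderated over all genes tested. By its labels, the comparison asks how heart transcripts differ where the helicase is deleted.

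Complex I, the NADH dehydrogenase of the inner mitochondrial membrane, takes electrons from NADH, passes them through a flavin and a chain of iron-sulfur clusters to ubiquinone, and pumps protons as it does so. Its core subunits carry the redox centres and the proton channels, and a large set of accessory subunits surrounds and stabilises them in an L-shaped particle with a matrix arm and a membrane arm. Assembly factors build these modules and are not part of the finished enzyme. The embryonic heart raises its mitochondrial capacity during gestation, and defects of complex I genes are a known cause of cardiomyopathy. The core subunits encoded in mitochondrial DNA lie outside the symbol rule. Ndufs6 and Ndufa11, accessory subunit genes, had no probe set naming them alone in the annotation used, and they were not analysed here.

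The targeted gene went against the labels. Log2 signals of Dhx36 were 8.99, 8.88 and 8.71 for wildtype replicates 1 to 3 and 10.10, 10.48 and 10.23 for Rhau KO replicates 1 to 3 (difference 1.41, adjusted p = 1.46e-05), so each direction below is that of the labels as deposited. The 3 Dhx36 probe sets averaged to a difference of 1.14 (limma, adjusted p = 5.56e-05). Where they lie relative to the deleted part was not examined, and the cause of the higher signal was not tested. Sex-linked transcripts also differed. Relative to the array with the most Y-linked signal, Rhau KO replicate 3, set to 100%, wildtype replicates 1 to 3 stood at 1.23%, 2.04% and 39.3%, and Rhau KO replicates 1 and 2 at 59.6% and 82.8%. Both Xist and Y-linked transcripts were present on 3 arrays, wildtype replicate 3 and the first 2 Rhau KO replicates, although a single embryo does not normally express both. Every array had the same linear trimmed mean, 500, and precision is limited by having 3 arrays per label.

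Under the Rhau KO label, transcripts of complex I were lower by small amounts that recurred across the enzyme. In the tested set of 43, 22 fell, 0 rose and 21 did not pass (limma, Benjamini-Hochberg adjusted p under 0.05), whereas 10.8% of all tested genes were called lower and 8.2% higher, 19% in all. At an unadjusted p under 0.05, 30 Nduf genes were lower and 0 higher. With each array centred on its median, those background shares were 14.9% and 4.28%, and 29 Nduf genes fell. The median difference was -0.17 on the log2 scale (Rhau KO minus wildtype) over the Nduf genes and 0.01 over all genes tested. It lay below 0 for 39 of the 43, against 48.1% of all tested genes. Among the 22 called genes the median fold was 1.19, and the differences ran from -0.46 to -0.15. All 3 arrays labelled Rhau KO lay below all 3 labelled wildtype for 31 Nduf genes, a pattern found in 18.7% of all tested genes. No Nduf gene separated in the other direction, as 18.4% of all genes did (37.1% in either). Most Nduf probe sets lay at the bright end of the scale, where saturation was not tested: 33 had a mean log2 signal of at least 12, of which 20 were called lower, while among all 1029 tested genes that bright 22.1% were called lower, 7.58% higher and 60.6% lay below 0. In bulk hearts, fewer cells of a type and less RNA per cell cannot be told apart. The count was 11 without wildtype replicate 1 (7.38% of all genes lower), 13 without wildtype replicate 2 (7.84%), and 8 when the variance was moderated without a trend (7.07%). It was 0 with a covariate for Y-linked signal (1.06%) and 0 in the 3 arrays with mixed sex-linked signal (3.61%), where 5 and 11 were lower at an unadjusted p under 0.05 in limma.

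**Figure D1:**
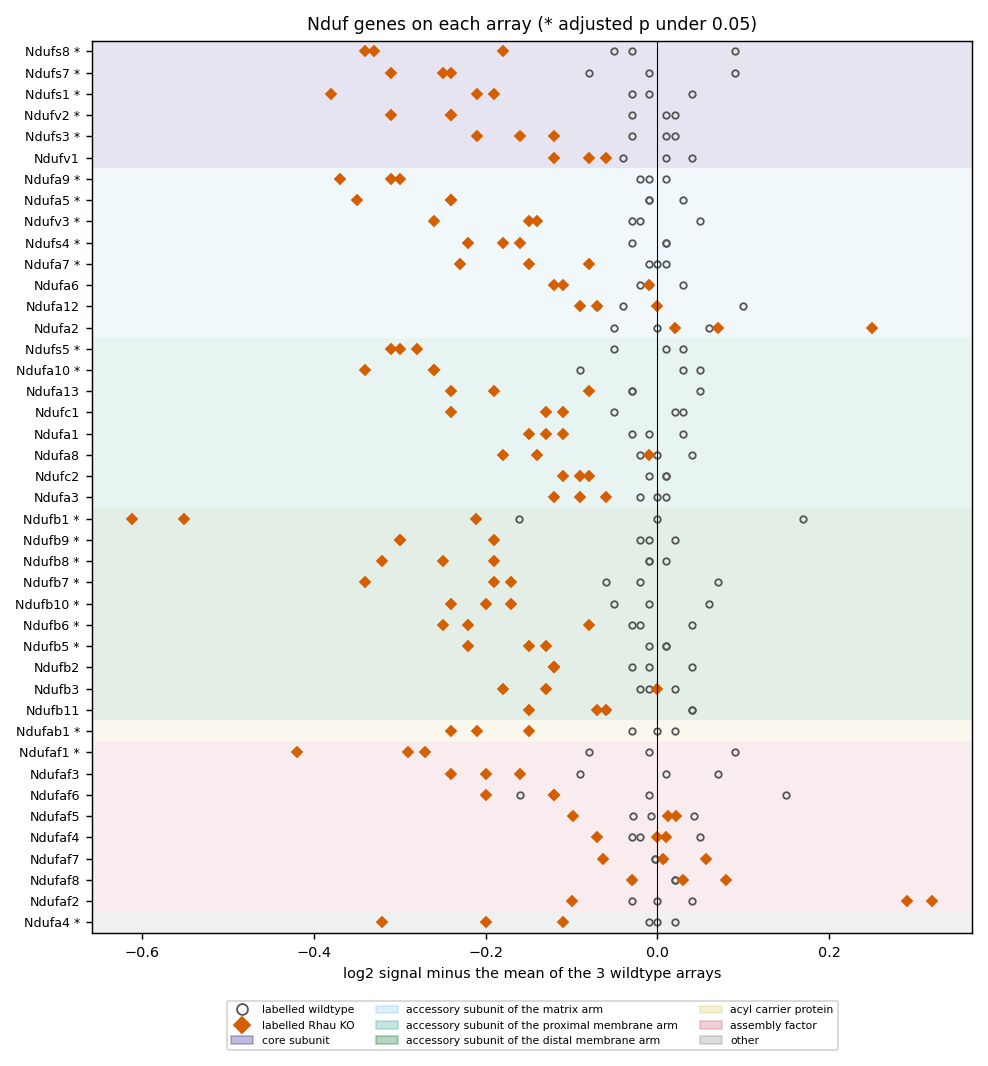
Log2 signal of 42 tested Nduf genes on each array, minus the mean of the 3 arrays labelled wildtype, with 1 row per gene and shading by role. Open circles are arrays labelled wildtype, diamonds arrays labelled Rhau KO, and an asterisk marks an adjusted p under 0.05. The diamonds lie left of the circles in most subunit rows, while those of several assembly factors straddle 0. Ndufa4l2 is left out because its signal of 4.86 on Rhau KO replicate 2, against a wildtype mean of 6.89, lies far below the plotted range.

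The start-proximal sequence of these genes was looked at because so many subunits moved together. RefSeq promoters on build GRCm38.p6 were held for 39 of the 44 genes. NRF1 and the ETS factor GABP are nuclear regulators long linked to respiratory genes. Motifs were searched on both strands in windows of 300 bases, 250 before the start and 50 after it. The NRF1 palindrome (GCGCA, any base, then GCGC) was found in 17.9% of the Nduf genes and in 7.17% of all 17491 protein-coding genes in the promoter table. By call, it was in 2 of 20 genes that fell and in 4 of 18 tested genes that did not pass. The ETS site CCGGAAG was found in 15.4% of the Nduf genes and 12.9% of all genes, in 5 of 20 that fell and in 1 of 18 that did not pass. The ERR element TCAAGGTCA was in 0 of 39 Nduf promoters and in 0.377% of all, and TATAAA in 10.3% and 14.8%. No matches of these motifs overlapped each other in the Nduf promoters. These shares were not tested, and a match is a description of the letters, not of binding. Shown are 4 promoters of genes that fell, as the 250 bases before the start, 5′ to 3′ on the gene's strand, with the matched motif in capitals. Ndufs3 (chr2:90904722-90904971, minus strand) and Ndufaf1 (chr2:119662835-119663084, minus strand) stand for a core subunit and an assembly factor with an ETS site, which begins at -27 and at -18 from the start. Ndufs3 has another ETS match, which begins at 2, after the start and outside the printed bases. Ndufs5 (chr4:123718187-123718436, minus strand) and Ndufa5 (chr6:24527691-24527940, minus strand) are the genes that fell with an NRF1 palindrome, beginning at -98 and at -26.
Ndufs3: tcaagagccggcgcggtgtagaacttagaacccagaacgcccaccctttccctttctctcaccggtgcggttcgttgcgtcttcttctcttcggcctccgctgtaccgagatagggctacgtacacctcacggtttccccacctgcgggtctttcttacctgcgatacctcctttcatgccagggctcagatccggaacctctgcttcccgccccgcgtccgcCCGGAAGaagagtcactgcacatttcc
Ndufaf1: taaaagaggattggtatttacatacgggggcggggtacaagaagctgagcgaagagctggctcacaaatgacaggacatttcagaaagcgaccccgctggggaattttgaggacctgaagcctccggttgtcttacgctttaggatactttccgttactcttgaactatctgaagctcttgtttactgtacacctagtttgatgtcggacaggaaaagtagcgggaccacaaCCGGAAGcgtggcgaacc
Ndufs5: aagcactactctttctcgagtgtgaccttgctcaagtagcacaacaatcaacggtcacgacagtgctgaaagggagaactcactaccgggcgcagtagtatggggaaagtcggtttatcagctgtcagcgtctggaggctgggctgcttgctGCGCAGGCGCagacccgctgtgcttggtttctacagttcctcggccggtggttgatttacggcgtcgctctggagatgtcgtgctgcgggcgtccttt
Ndufa5: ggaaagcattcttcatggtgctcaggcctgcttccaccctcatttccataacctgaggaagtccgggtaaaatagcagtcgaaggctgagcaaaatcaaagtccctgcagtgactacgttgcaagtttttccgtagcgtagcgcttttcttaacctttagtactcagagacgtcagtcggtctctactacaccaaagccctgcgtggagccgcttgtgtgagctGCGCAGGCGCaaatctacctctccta

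Core subunits were lower almost throughout. Of 6 measured nuclear core genes 5 fell and 1 did not pass, with a median difference of -0.26, and in all 6 the groups did not overlap. Among all tested genes 10.8% were called lower, and 18.7% had every Rhau KO array below every wildtype array. Ndufs8, which holds iron-sulfur clusters next to the quinone site, measured 13.52, 13.40 and 13.38 on wildtype replicates 1 to 3 and 13.09, 13.10 and 13.25 on Rhau KO replicates 1 to 3, the order kept for every gene that follows. It fell 1.22-fold (difference -0.29, SE 0.059, adjusted p = 0.00718), but its 6 probe sets averaged to -0.18 without a call (adjusted p = 0.0808). Ndufs7, which carries the last cluster before ubiquinone, went from 13.06, 12.96 and 12.89 to 12.73, 12.66 and 12.72. Its fold was 1.20 (difference -0.27, SE 0.052, adjusted p = 0.00553). Both genes encode subunits of the module that binds ubiquinone. Of the NADH-oxidising module, Ndufs1, the largest subunit and carrier of several clusters, was at 12.82, 12.87 and 12.80 and then at 12.62, 12.45 and 12.64, with replicate 2 labelled Rhau KO the lowest. Its difference was -0.26 (SE 0.057, adjusted p = 0.0100). Ndufv2, a small cluster-bearing subunit beside the flavin, was tightly grouped at 13.89, 13.85 and 13.90 against 13.64, 13.57 and 13.64, which gave -0.26 (SE 0.043, adjusted p = 0.00214). Ndufs3, a scaffold of the quinone module whose promoter is printed above, was at 13.35, 13.31 and 13.36 against 13.22, 13.13 and 13.18. Its difference of -0.16 passed (adjusted p = 0.0262), but the call was lost without any 1 of the wildtype arrays (adjusted p = 0.0912, 0.0640 and 0.0886). Ndufv1, which binds NADH and the flavin, was the exception at 13.16, 13.13 and 13.08 against 13.06, 13.00 and 13.04. Its difference of -0.09 (SE 0.045) did not pass (adjusted p = 0.189), while a second Ndufv1 probe set was lower by a difference of -0.22 (adjusted p = 0.0459). Another Ndufv1 probe set, at -0.10, was not called (adjusted p = 0.215).

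Accessory subunits of the matrix arm had 5 lower genes among 8, beside 10.8% of all tested genes. Their median was -0.17, and 3 did not pass. Ndufa9, which holds the junction of the arms near the quinone site, had the smallest adjusted p of all Nduf genes. Its signals were 13.49, 13.46 and 13.47 in the arrays labelled wildtype and 13.17, 13.18 and 13.11 in those labelled Rhau KO, a 1.25-fold fall (difference -0.32, SE 0.043, adjusted p = 6.26e-04). Ndufa5, whose NRF1 palindrome is shown above, went from 13.24, 13.20 and 13.20 to 12.86, 12.97 and 12.97, with a difference of -0.28 (SE 0.047, adjusted p = 0.00261). In both genes the gap between the groups was wider than the range within either. Ndufs4, a subunit lost in a known mouse model of Leigh syndrome, was at 12.55, 12.55 and 12.51 against 12.32, 12.38 and 12.36 (difference -0.18, adjusted p = 0.0163). Its call was lost without wildtype replicate 1 or 2 or Rhau KO replicate 1, and its probe sets averaged to -0.00319 without a call. Ndufv3, a small subunit near the flavin, had a difference of -0.18 (adjusted p = 0.0249), and Ndufa7 one of -0.15, only just inside the threshold (adjusted p = 0.0492) and outside it with averaged probe sets (adjusted p = 0.0521). Ndufa2, a thioredoxin-like subunit, ran the other way without passing: 13.09, 13.15 and 13.04 against 13.34, 13.16 and 13.11. Its difference of 0.11 (adjusted p = 0.249) came mainly from replicate 1 labelled Rhau KO, and the groups overlapped. Ndufa6 differed by -0.08 (adjusted p = 0.297) and the remaining member, Ndufa12, by -0.05 without a call, although another Ndufa12 probe set fell by 0.30. The rest of the Ndufa12 probe sets, at -0.06 and 0.34, were not called.

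In the proximal membrane arm 2 of 8 accessory genes fell and 6 did not pass, with a median of -0.14, and the groups did not overlap in 7. Beside this, 10.8% of all tested genes were called lower, and 22.1% of those with a mean log2 signal of at least 12. The groups separated in this direction in 18.7% of all tested genes. Ndufs5, a disulfide-bonded subunit on the intermembrane side, was at 13.07, 13.05 and 12.99 against 12.76, 12.73 and 12.74, a 1.23-fold fall (difference -0.30, SE 0.044, adjusted p = 0.00119). Ndufa10, a nucleoside-kinase-like subunit, was at 13.65, 13.63 and 13.51 against 13.34, 13.26 and 13.34 (difference -0.28, SE 0.051, adjusted p = 0.00354). A second Ndufa10 probe set was lower by a larger difference of -0.59 (adjusted p = 0.0101). The genes nearest the threshold on its outer side were Ndufa13, also known as the cell death regulator GRIM-19, at -0.16 (adjusted p = 0.0521), and Ndufc1 at -0.16 (adjusted p = 0.0512). Ndufc1 was at 14.19, 14.20 and 14.12 against 14.06, 13.93 and 14.04, so the arrays separated although the call missed. The other members lay between -0.13 and -0.09. Among them was the X-linked Ndufa1, a small membrane subunit, at 14.02, 14.06 and 14.00 against 13.90, 13.88 and 13.92 (difference -0.13, adjusted p = 0.0590).

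The distal membrane arm, which ends the proton-pumping part of the enzyme, had the most called genes of any accessory group. Of 10 tested genes 7 fell, beside 10.8% of all tested genes, and 3 did not pass. All 10 differences lay below 0, and the median was -0.19. Ndufb9, a LYR-motif subunit that binds the acyl carrier protein, was at 14.12, 14.15 and 14.11 against 13.94, 13.83 and 13.83 (difference -0.26, SE 0.046, adjusted p = 0.00300), a call that averaged probe sets lost (adjusted p = 0.257). Ndufb8, a single-pass membrane subunit often used as a marker of assembled complex I, was at 13.54, 13.56 and 13.54 against 13.30, 13.36 and 13.23 (difference -0.25, SE 0.046, adjusted p = 0.00389). The mean of its probe sets differed by 0.01 without a call, and its dim second probe set by 0.28 without a call. Ndufb7 went from 13.41, 13.32 and 13.28 to 13.17, 13.00 and 13.15 (difference -0.23, adjusted p = 0.0179), and Ndufb10, a cysteine-rich subunit on the intermembrane side, from between 12.69 and 12.80 to at most 12.57 (difference -0.21, adjusted p = 0.0129). Ndufb1 had the largest difference among called genes and also the widest spread: 9.06, 9.23 and 8.90 against 8.51, 8.45 and 8.85 (difference -0.46, SE 0.127, adjusted p = 0.0302). Replicate 3 labelled Rhau KO lay just below the lowest array labelled wildtype, and the call for Ndufb1 was lost without wildtype replicate 1 or 2, without Rhau KO replicate 1 or 2, and with the replicate number as a block (adjusted p = 0.0530). Both remaining called genes of this arm differed by -0.18 and -0.17. Ndufb2 (-0.12, adjusted p = 0.0823), Ndufb3 (-0.10, adjusted p = 0.217) and the X-linked Ndufb11 (-0.10) did not pass. Other probe sets of Ndufb11 were lower by 0.18 and 0.31 with a call.

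**Figure D2:**
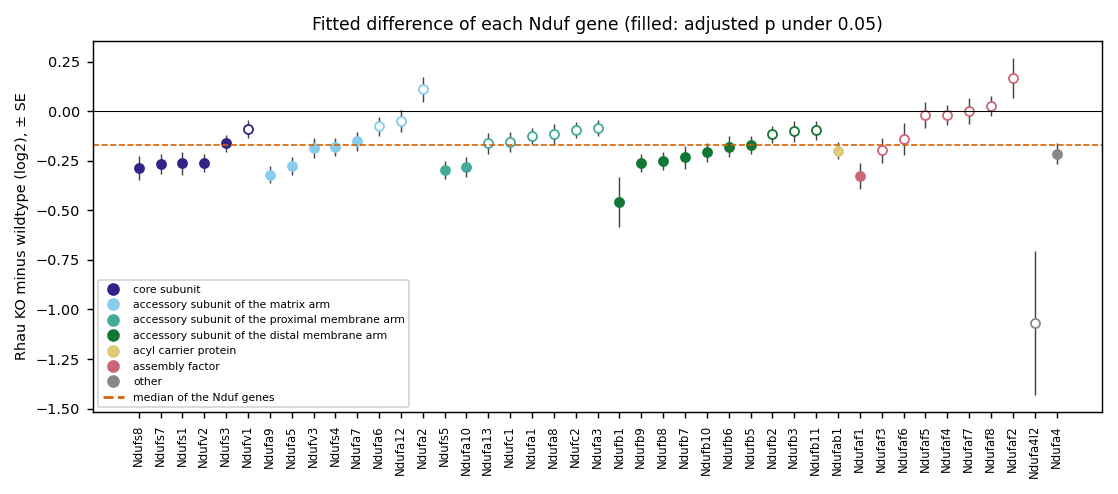
Fitted difference of each of the 43 tested Nduf genes, Rhau KO minus wildtype on the log2 scale, with its standard error, ordered by role and coloured as in the legend. Filled points passed an adjusted p of 0.05, and the dashed line is the median of -0.17. Most subunit genes lie between -0.33 and -0.05, and Ndufa4l2 stands apart with a wide error. Assembly factors run from -0.33 to 0.17 around a median of -0.02.

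Assembly factors included 1 lower gene among 8 and none higher, with a median of -0.02. That count is near the 10.8% of all tested genes called lower. The 33 subunit genes, of which 20 fell, had a median of -0.18, and the difference between these groups was not tested. Role also went with brightness. Every tested subunit gene but Ndufb1 had a mean log2 signal above 12, and every assembly factor one below 12. Of all tested genes with a mean of at least 12, 22.1% were called lower. The median standard error was 0.048 for the subunit genes and 0.065 for the assembly factors. Ndufaf1, a chaperone of the early membrane-arm intermediate with an ETS site in the promoter printed above, was the assembly factor that fell. Its signals of 11.08, 10.98 and 10.91 in the arrays labelled wildtype stood above 10.72, 10.70 and 10.57 in those labelled Rhau KO (difference -0.33, SE 0.065, adjusted p = 0.00623). Ndufaf3, which works on the quinone module, was at 10.58, 10.52 and 10.42 against 10.31, 10.35 and 10.27, separated but outside the threshold (difference -0.20, adjusted p = 0.0537). Its partner Ndufaf4 was level at 11.29, 11.37 and 11.30 against 11.25, 11.32 and 11.33 (difference -0.02, adjusted p = 0.836), whereas a second Ndufaf4 probe set was higher with a call (difference 0.28, adjusted p = 0.0266). Ndufaf6 differed by -0.14 (adjusted p = 0.250). The hydroxylase gene Ndufaf5 differed by -0.02 and the methyltransferase gene Ndufaf7 by 0.00 with a standard error of 0.064. Ndufaf8, a partner of the Ndufaf5 protein, stood at 0.03 (adjusted p = 0.776). Ndufaf2, a paralog of the subunit gene Ndufa12 that acts late in assembly, lay between 9.97 and 10.04 on the arrays labelled wildtype and at 9.90, 10.29 and 10.32 on those labelled Rhau KO. Its arrays labelled Rhau KO lay on both sides of the wildtype range, and the difference of 0.17 did not pass (adjusted p = 0.290). Without replicate 1 labelled Rhau KO it was 0.30 with a call (adjusted p = 0.0179).

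The remaining symbols name proteins with other or additional roles. Ndufab1 is the mitochondrial acyl carrier protein, which serves fatty acid and lipoate synthesis and iron-sulfur cluster formation and also sits in both arms of complex I. It was at 13.65, 13.60 and 13.63 against 13.42, 13.39 and 13.48 and fell by 0.20 on the log2 scale (SE 0.044, adjusted p = 0.0103). Averaging all of its probe sets gave -0.03 without a call. Ndufa4, first purified with complex I and later assigned to cytochrome c oxidase, was at 14.16, 14.14 and 14.13 against 13.94, 13.82 and 14.03 (difference -0.21, adjusted p = 0.0213), and the call was lost without any 1 wildtype array or without Rhau KO replicate 1. Ndufa4l2, its hypoxia-induced paralog, was at 6.92, 6.86 and 6.89 against 6.39, 4.86 and 6.22. Its difference of -1.07 was the largest of the Nduf genes and its standard error of 0.364 the widest, and it did not pass (adjusted p = 0.0654). Replicate 2 labelled Rhau KO lay below the filter level of 5.90. Ndufb4, untested, was at 5.76, 5.79 and 6.02 against 5.67, 5.15 and 5.74, near or below that level on every array.

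Other probe sets of the same genes gave a partial second reading. There were 42 above the filter for 22 genes. Of 26 that belonged to genes called lower, 19 lay below 0, 13 were called lower and 0 higher. Of 16 that belonged to genes without a call, 5 were called lower and 1 higher. By brightness, of 24 with a mean log2 signal of at least 12, 23 lay below 0 and 14 were called lower, whereas of 13 with a mean below 10, 5 lay below 0 and 1 was called lower. Over all probe sets tested, 7.84% were called lower and 6.8% higher. These probe sets read the same RNA as the representatives, so they are no added replicates. What the dim probe sets of these genes detect was not tested.

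**Figure D3:**
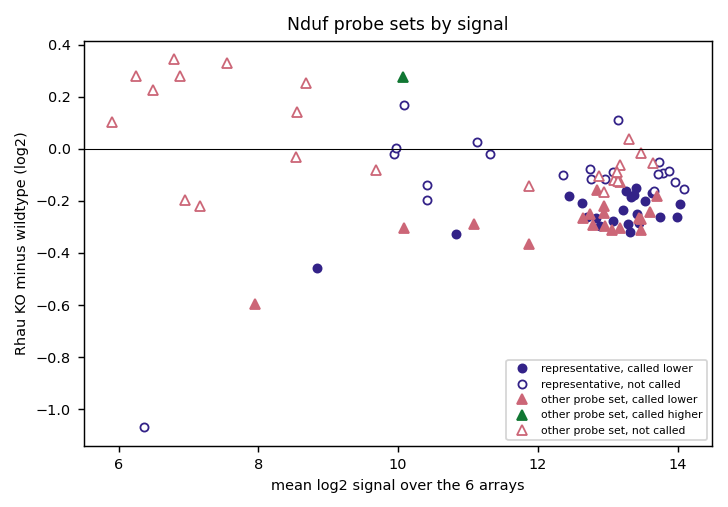
Difference between labels against mean log2 signal for Nduf probe sets above the filter; circles are the representatives of 43 genes and triangles the other 42 probe sets, filled where the adjusted p is under 0.05. Above a signal of 12 nearly all points lie below 0, while the dim triangles scatter on both sides.

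Within a label the arrays were not equal. The median over the 43 genes, relative to the wildtype mean, was -0.14 in replicate 1, -0.19 in replicate 2 and -0.15 in replicate 3 labelled Rhau KO, and it ran from -0.02 to 0.02 in the arrays labelled wildtype. Replicate 2 labelled Rhau KO was the lowest of the 6 arrays for 26 of the 43 genes, and replicate 1 labelled wildtype the highest for 24. That Rhau KO replicate 2 was also lowest in the median of the cardiomyocyte markers, at -0.22 against -0.08 and -0.04 in the other arrays labelled Rhau KO. Summed over 7 such markers, the linear signal was 181400 to 189300 under the wildtype label and 162300 to 184500 under the Rhau KO label. Of these markers 5 did not pass and the median was -0.11, beside 10.8% of all tested genes called lower. Those that fell were Myh6 (-0.35), the myosin heavy chain, and Ryr2 (-0.26), the calcium release channel. Both calls were lost with a Y-linked covariate (adjusted p = 0.287 and 0.578) and in the 3 arrays with mixed sex-linked signal (0.0983 and 0.198). No marker was at 0, and the part of cardiomyocyte content in the Nduf differences was not tested. Leaving out single arrays showed where the calls rested. All 11 calls that were lost in some such fit were lost without wildtype replicate 1, the array highest for the most genes. The other 11, those of Ndufs1, Ndufs7, Ndufs8, Ndufv2, Ndufa5, Ndufa9, Ndufa10, Ndufs5, Ndufb8, Ndufb9 and Ndufaf1, were kept in all 6. Without wildtype replicate 3, 17 genes were lower, beside 7.86% of all genes, and without each Rhau KO array 20, beside 9.14%, 8.94% and 9.71%.

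Complex I did not move alone among the respiratory complexes. Of 8 complex II genes 4 fell and 1 rose (median -0.18), of 14 complex III genes 9 fell (median -0.21), of 20 genes of complex IV 9 fell (median -0.15), and of 19 genes of ATP synthase and its partners 9 fell (median -0.16), with no gene rising in the last 3 lists. These lists hold assembly factors beside subunits. In complex II Sdha, Sdhb, Sdhc and Sdhd fell, while the assembly genes Sdhaf1, Sdhaf2 and Sdhaf3 did not pass. In complex III the assembly gene Uqcc1 fell, while Bcs1l, Uqcc2, Uqcc3, Ttc19 and the subunit gene Uqcrb did not pass. The assembly genes Cox10, Cox20 and Atpaf1 also fell. Of all tested genes 10.8% were called lower and 8.2% higher. Among those with a mean log2 signal of at least 12, 22.1% were called lower. Differences between the complexes were not tested. Examples are Sdhb (-0.29) and Sdhd (-0.30) of succinate dehydrogenase, the Rieske protein gene Uqcrfs1 (-0.28) and cytochrome c1 (Cyc1, -0.27), the heme A enzyme gene Cox10 (-0.83), the muscle isoforms Cox8b (-0.60) and Cox7a1 (-0.45), and Atp5g1 (-0.38), of the proton-conducting ring. The complex II assembly factor gene Sdhaf4 rose by 0.28. Averaging probe sets turned Uqcc1, a complex III assembly gene, from -0.36 to 0.11 and left Atp5g1 at -0.07 and Sdhd at -0.12, all without a call. Of 13 other complex I assembly factors, genes with unrelated symbols, 2 fell and 0 rose (median -0.07): Timmdc1, a membrane-arm factor, and Aifm1, a flavoprotein needed for import of respiratory proteins, each at -0.32. This count stands beside 10.8% of all genes, and both calls were lost with the Y-linked covariate and in the 3 mixed arrays. Enzymes that deliver electrons to ubiquinone by other routes had 2 lower of 8, beside the same 10.8%. These were Etfdh (-0.18) and Etfa (-0.19), both of the fatty acid oxidation route. Averaged probe sets put Etfdh at 0.12 without a call. With Y-linked signal added as a covariate the complexes had 0, 0, 1 and 0 lower calls in the order above, beside 1.06% of all genes.

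**Figure D4:**
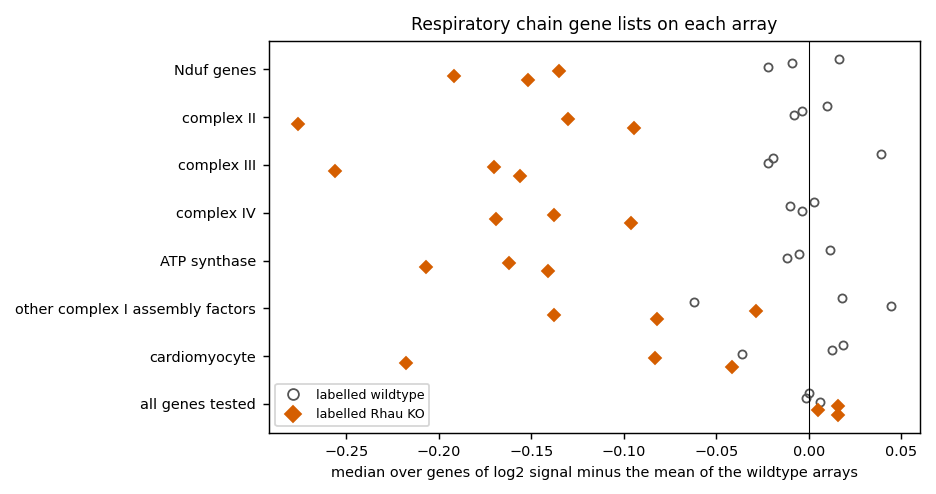
Median over the tested genes of each list of the log2 signal minus the mean of the 3 arrays labelled wildtype, 1 point per array; circles are labelled wildtype and diamonds labelled Rhau KO. For the Nduf genes the diamonds lie between -0.19 and -0.14 and for complexes II to IV and ATP synthase they also lie left of every circle, while the median of all genes tested stays within 0.02 of 0.

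Among 15 measured regulators of mitochondrial genes 4 rose and 2 fell, with a median of 0.16, beside 8.2% and 10.8% of all genes. With the Y-linked covariate 1 was called higher and 0 lower, and in the 3 mixed arrays 1 and 1. Ppargc1a, a coactivator that promotes respiratory gene expression, was at 10.42, 10.39 and 10.32 against 11.24, 10.91 and 11.04 and rose 1.61-fold (adjusted p = 2.74e-04). Its relative Ppargc1b was lower at 10.75, 10.76 and 10.69 against 10.45, 10.24 and 10.51 (difference -0.33, adjusted p = 0.0111). The Ppargc1b call was lost with the Y-linked covariate (-0.30, adjusted p = 0.459), in the 3 mixed arrays (adjusted p = 0.118) and without a variance trend (adjusted p = 0.0562). Tfb1m, a methyltransferase of the mitochondrial ribosomal RNA, fell by 0.59 on the log2 scale, a difference that averaged probe sets gave as -0.35 without a call. Of the genes for NRF1 and GABP, Gabpa was higher by 0.30 (adjusted p = 0.0437), though its groups overlapped. That call was lost with averaged probe sets (-0.03) and with the Y-linked covariate (adjusted p = 0.490). Nrf1 (0.33, adjusted p = 0.0674) and Gabpb1 (0.16) did not pass.

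Some markers of other cells also differed in the same arrays. Over all tested genes 10.8% were called lower and 8.2% higher, and with the Y-linked covariate 1.43% either way. All 6 tested erythroid markers fell (median -1.20), with a summed linear signal of 33840 to 38860 under the wildtype label and 19170 to 26570 under the Rhau KO label. Alas2, Slc4a1 and Epb42 differed by -1.39, -1.27 and -1.57. Of the erythroid markers 5 were called lower with the Y-linked covariate and 6 in the 3 mixed arrays. Of 7 endothelial markers 4 rose (median 0.335), Kdr, Cdh5 and Sox18 by 0.63, 0.50 and 0.36 among them, with summed signals of 8621 to 9499 and 9941 to 10610. With the Y-linked covariate limma called 0 of these higher (Kdr 0.29, Sox18 0.16), and in the 3 mixed arrays 1, while averaged probe sets put Cdh5 at 0.22 without a call. Of 6 macrophage markers Lyz2 (2.98) and Mrc1 (0.43) rose, and the Mrc1 call was lost in both of those analyses. Csf1r (0.04), Cd68 (0.24), Ptprc (0.34) and Fcgr1 (0.38) did not pass. Sums over all 6 were 1998 to 2102 and 2978 to 3663, and they include Lyz2, whose mean log2 signal went from 7.32 to 10.3. The fibroblast and epicardium list had 0 called of 6, with Pdgfra at -0.39 and Wt1 at 0.16, and none of 3 liver markers passed the filter. No marker of the tested lists apart from sex-linked ones was at 0 on any array. Their part in the Nduf differences was not tested.

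No Nduf call passed in either analysis that took the sex-linked signal into account. Among the 3 arrays that carried transcripts of both kinds, 1 labelled wildtype and 2 labelled Rhau KO, the median Nduf difference was -0.17 and 39 of 43 differences lay below 0, against 51% of all genes. There limma called 0 Nduf genes, 11 being lower and 0 higher at an unadjusted p under 0.05, where 3.61% of all genes were called lower and 2.4% higher, and the lone array labelled wildtype is assumed to vary like the others. With Y-linked signal added as a covariate the median was -0.14 and 37 of 43 differences lay below 0, against 50.5% of all genes. Again limma called 0 Nduf genes, with 5 lower and 1 higher at an unadjusted p under 0.05 and 1.06% of all genes called lower (1.43% either way). The median standard error of the Nduf genes rose from 0.051 to 0.112 with the covariate. Y-linked signal was 1.23% to 39.3% under the wildtype label and 59.6% to 100% under the Rhau KO label. Label and Y-linked signal are thus confounded, and their parts in the Nduf differences cannot be told apart. In the fit with the covariate, core subunits stood at a median of -0.19 and assembly factors at -0.05. Ndufa9 stood at -0.27, Ndufa5 at -0.34, Ndufv2 at -0.29 and Ndufs8 at -0.33, while Ndufaf1 stood at -0.11, Ndufa13 at 0.00239 and Ndufa2 at 0.37. Beside the counts of 8, 11 and 13 given above, the remaining settings gave 17 with quantile normalization (11.1% of all genes lower) or with averaged probe sets (6.49%), 20 without a filter (6.41%), 21 with the replicate block (10.5%), 23 with a pseudocount of 64 (11%), 24 with array weights (10.9%) and 25 when genes in the lowest 60% were dropped (13.5%).

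**Figure D5:**
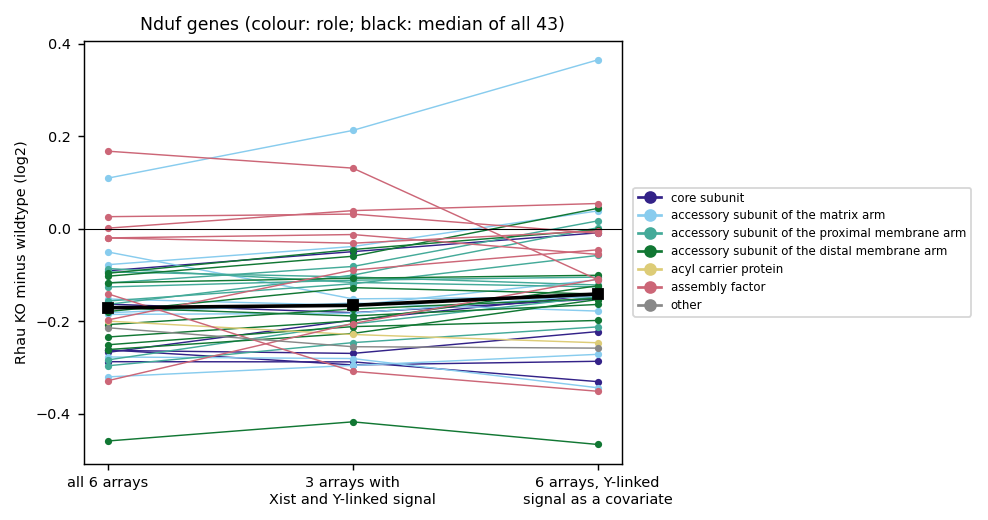
Difference between labels for 42 tested Nduf genes (Ndufa4l2 is not drawn) in all 6 arrays, in the 3 that carry Xist together with Y-linked transcripts, and in all arrays after adding a covariate for Y-linked signal. Lines join the values of a gene, coloured by role, and black squares are the median of all 43 genes, at -0.17, -0.17 and -0.14.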

How the data were processed

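Heart RNA, amplified to biotin-labelled cRNA per the labels' protocols, was read on Affymetrix mouse arrays. Values in the deposited table are log2 signals from MAS5, per the submitters' processing notes; its version, and the build behind the annotation, are not given in the sources used here. Every array has a 2% trimmed mean of 500 in linear signal, by calculation from the values. The table has 45101 probe sets, of which 64 controls were left out; 34945 name 1 gene. Symbols were checked through Entrez identifiers against RefSeq (GRCm38.p6), which changed 0 of them. Detection calls were not used here.

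Each gene was represented by its brightest probe set, and genes in the lowest 40% of probe sets, under 5.90, were left out. Groups were compared with limma 3.58.1 in R 4.3.3 (lmFit, eBayes with trend), two-sided, with Benjamini-Hochberg adjustment over 12416 genes and a threshold of 0.05. On simulated data the procedure recovered 62.7% of 1.5-fold, 80.6% of 2-fold and 95.5% of 4-fold changes, and 2.45% of its calls were false. Changes as small as those of the called Nduf genes were not simulated. Differences are Rhau KO minus wildtype on the log2 scale. Same-numbered arrays did not deviate together (correlations -0.0118, 0.0446 and 0.0131). Lists are described by counts and medians, with no list test. The members and lists were chosen with earlier results of these data known. Named genes are Dhx36, the measured core subunits and assembly factors, Ndufab1, Ndufa4 and Ndufa4l2. To these come up to 5 called and 2 uncalled members of largest change in each accessory group, and up to 3 called genes of each other list. Ndufa1, Ndufa12, Ndufb11, Ndufb4, Nrf1, Gabpa and Gabpb1 were added after their values were seen. Python 3.11.15, pandas 2.3.3 and matplotlib 3.10.9 made the summaries and plots. Alternatives were other pseudocounts, normalizations, filters, probe-set rules, moderation and weights, the replicate block, a Y-linked covariate, and fewer arrays.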

Additional observations from a re-analysis of the deposited data

How the results depend on the processing

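The count of 22 Nduf genes lower stayed within 1.5 times under pseudocounts of 1 and 64, quantile normalization, median centring, both other filters, averaged probe sets, annotation symbols, array weights and every probe set tested on its own, the last chosen after seeing the data; it ran from 17 to 29. With the replicate block it was 21. It was 8 in eBayes without trend, 0 with a Y-linked covariate and 0 among the 3 arrays carrying Xist plus Y-linked transcripts; 3 arrays hold fewer samples, and the cause of the others was not tested. Leaving out each array gave 11 to 20 lower and 0 to 1 higher, the latter being Ndufaf2, and 11 of the 22 calls were kept in all 6 such fits. The median difference ran from -0.186 to -0.147 without single arrays and was -0.24 with median centring, which moved the median of all genes to -0.06. It was below 0 in every fit run. Averaged probe sets turned Ndufb8 to 0.0139, Etfdh to 0.123 and Uqcc1 to 0.112, and the covariate turned Eif2s3y, Kdm5d and Uty to -2.07, -0.935 and -0.829. Differences of 0.2 on this scale rest on standard errors near 0.05. These come from 3 arrays per label and from moderation over all genes tested.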
